A study of Mus musculus with 16 samples.

Results

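The response of the liver to partial hepatectomy was examined in mice whose hepatocytes kept PPARα, the fatty acid sensing nuclear receptor encoded by Ppara. The comparison set 4 arrays of Ppara fl/fl livers taken 12 h after partial hepatectomy (PHx) against 4 arrays of Ppara fl/fl livers taken 12 h after a sham operation, 8 of the 16 arrays of the series. In fl/fl mice Ppara is flanked by the recombination sites used for its deletion and is intact, and the labels call these mice wild type. The other 8 arrays are of PparaΔHep mice, in which PPARα was disrupted in hepatocytes, 4 after PHx and 4 after sham at the same time. The labels name neither the Cre driver nor the age or sex of the mice, and they do not say whether each array holds a separate mouse, so each p-value reflects array-to-array spread, some of which may be technical. Total liver RNA was labelled with biotin and hybridised to Affymetrix arrays, and each value is a log2 intensity of a probe set. All genes of the table with a probe set of 1 symbol were fitted, 30142 in number, and 28335 are described here after 1807 genes of chromosome Y and of the olfactory, vomeronasal and Speer families were set aside. Of those, 17597 are protein-coding. Array numbers below only name the arrays, in the order of the samples, and pair nothing.

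Partial hepatectomy removes most of the lobes of the liver, and the remnant restores its mass by enlarging and dividing the cells that are left. Hepatocytes leave rest under cytokine and growth factor signals in the first hours, fill with lipid droplets while fat arrives from adipose tissue, and enter DNA synthesis later. Through this period the remnant has to keep up the synthesis of plasma proteins, bile acids, glucose and urea with a fraction of its former cells.

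Some features of the arrays moved with the operation and stand before the results. The median of the 559 chromosome Y probe sets lay between 1.82 and 1.88 on the sham fl/fl arrays and between 4.99 and 5.21 on the PHx fl/fl arrays. Y genes known as single-copy did not follow it. Eif2s3y stood at 5.29, 5.35, 5.20 and 5.39 on sham arrays 1 to 4 and at 5.0, 4.96, 4.84 and 5.21 on PHx arrays 1 to 4, and Uty at 4.76, 4.91, 4.81 and 4.91 against 4.63, 4.75, 4.75 and 4.75, while Sly, a gene of many Y copies, stood at 2.15, 2.11, 2.38 and 2.24 against 5.06, 5.08, 4.62 and 5.03. Genes of chromosome Y were therefore set aside. Positive control probe sets had medians of 5.82 to 5.97 on sham and 5.60 to 5.66 on PHx arrays, antigenomic background probe sets 1.19 to 1.29 against 1.0 to 1.09, and the 17597 protein-coding genes 3.39 to 3.44 against 3.28 to 3.33, with no overlap in any of these. Negative control probe sets went the other way, at 1.81 to 1.95 against 1.97 to 2.12. The size of these shifts is like that of many of the small changes below, and their part in the results was not tested. The labels name no labelling or hybridisation batch, so a batch that followed the operation cannot be told apart from it in any result below. A principal component analysis of the 8 arrays over the described genes put 72.7% of the variance on a first axis that parted PHx from sham, and 10.8% on a second that spread the PHx arrays, with array 3 at 29.2 and arrays 1 and 4 at -17.6 and -23.5. The genes used include 151 snoRNA genes, described below, that rose steeply and repeat values among them. Their part in the first axis was not tested, so its share is no measure of how broad the liver response was.

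**Figure D1:**
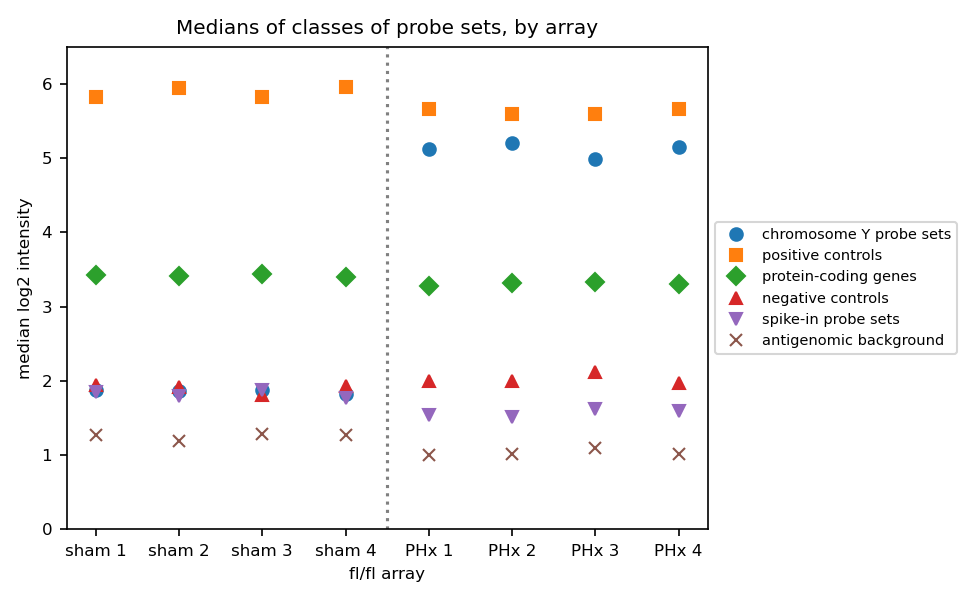
Median log2 intensity of 6 classes of probe sets or genes on each of the 8 fl/fl arrays (x axis, sham arrays 1 to 4, then PHx arrays 1 to 4; y axis, log2 intensity). Chromosome Y probe sets lay between 4.99 and 5.21 on PHx arrays and between 1.82 and 1.88 on sham arrays, while positive controls and protein-coding genes lay slightly lower on PHx arrays.

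In all, 9052 of the 28335 described genes passed the test at an adjusted p below 0.05 (31.9%), 2787 higher (9.84%) and 6265 lower (22.1%) after PHx. Among protein-coding genes 5747 passed (32.7%), 1088 higher and 4659 lower. The split by direction depended on the scaling. Of the genes that passed over the described set, 30.8% were higher on the deposited scale, 52.9% after cyclic loess normalization between arrays and 67.6% after the protein-coding median of each array was subtracted. The second scaling moved the median over all described genes from -0.05 to 0.05. Among changes of at least 2-fold, 566 genes were higher and 282 lower (2.99% of genes), against 618 and 174 after loess. Without PHx array 4 the lower count was 438 and the higher one 595. Restricted to the 2107 protein-coding genes with a mean of at least 6 in 1 group, a level well clear of the background, 174 genes rose (8.26%) and 835 fell (39.6%), 48 (2.28%) and 126 (5.98%) of them at least 2-fold. The median change of those 174 genes was 0.62 and that of the 835 genes was -0.55 on the log2 scale.

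The largest rises among these genes included proteins that handle lipid. Cidec, which fuses lipid droplets, stood at 2.92, 2.88, 2.87 and 2.88 on the sham arrays and at 7.05, 6.56, 5.75 and 6.02 on the PHx arrays. The sham arrays were uniformly low and all 4 PHx arrays lay far above them, a difference of 3.46 ± 0.38 on the log2 scale (SE; limma adjusted p = 8.12e-06), or 11-fold. Mfsd2a, a transporter of lysophosphatidylcholine, went from 6.02, 4.71, 4.06 and 7.55 to 9.42, 9.73, 9.90 and 7.89. Its sham arrays spread widely, with array 4 close to the lowest PHx array. Its rise of 3.65 ± 1.12 passed with all arrays (adjusted p = 0.0212) but not without sham array 2 or 3 or PHx array 2 or 3 (adjusted p from 0.0509 to 0.0687). Pdk4, the kinase that shuts pyruvate dehydrogenase and so spares glucose, went from 4.19, 4.82, 4.20 and 4.15 to 6.53, 7.97, 8.98 and 5.82, with PHx array 4 the lowest of its group and array 3 the highest. The mitochondrial acyl-CoA thioesterase gene Acot2 rose by 2.20 ± 0.39, and Gpcpd1, which cleaves glycerophosphocholine, by 2.08 ± 0.32. Slc25a30, a carrier of the inner mitochondrial membrane, rose by 2.34 ± 0.52.

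Other large rises were in signalling and in amino acid and purine breakdown. Tnfrsf12a encodes Fn14, the receptor of the cytokine TWEAK, and stood at 5.26, 4.57, 4.51 and 4.57 on sham and 7.58, 7.61, 7.94 and 6.37 on PHx arrays. PHx array 4 was the lowest of its group and still above every sham array, and the means differed 6.26-fold. Nrg4, an EGF family ligand of ERBB4, rose by 2.09 ± 0.39, and Sik1, a kinase induced by cAMP, by 1.81 ± 0.46. Xdh, the xanthine dehydrogenase that makes uric acid, had little spread in either group, from 6.59, 6.46, 6.26 and 6.54 to 8.25, 8.50, 8.40 and 8.44 (a rise of 1.93 ± 0.09, adjusted p = 1.15e-10). Aass, the first enzyme of lysine breakdown, was as clearly parted, from 8.66, 8.40, 8.04 and 8.47 to 9.87, 10.66, 10.32 and 10.10. The identifier of the Xdh probe set names another chromosome than RefSeq gives for the gene. Another chromosome or none was named for 66 of 17597 protein-coding genes, so the name of this probe set is less sure. Got1, the cytosolic aspartate aminotransferase, rose by 1.96 ± 0.41. The 3 remaining genes of the 15 largest rises, E030018B13Rik (3.99 ± 0.31), Csprs (2.76 ± 0.13) and Gm7735 (1.81 ± 0.08), are known by symbol more than by function. Csprs belongs to a repeated gene cluster, and its rise moved with the repeated Y sequence above. The part of the chromosome Y shift in the rises of these 3 genes was not tested.

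Among genes whose arrays did not overlap, the 15 largest falls were of Derl3, Hsd3b5, Hsd3b3, Keg1, Akr1c14, Enpp3, Gm4952, Adh4, Ppp1r3c, Elovl3, Angptl8, Coq8a, Igfals, Dhrs3 and Acsm5. Derl3, a membrane protein that helps to export misfolded proteins from the endoplasmic reticulum (ER), went from 8.19, 7.80, 8.32 and 8.27 to 4.38, 3.80, 4.12 and 3.98, a fall of 4.08 ± 0.44 (adjusted p = 7.03e-06). No PHx array came within 3 log2 units of the sham arrays. Hsd3b5, a steroid dehydrogenase typical of male mouse liver, went from 7.33, 8.68, 8.78 and 8.03 to 4.04, 3.17, 4.89 and 4.62, and its near copy Hsd3b3 changed by -3.11 ± 0.46. Close copies of this kind may share probes, so the value of each is uncertain. Enpp3, an ectoenzyme that cleaves nucleotides, changed by -2.78 ± 0.36, the 3α-hydroxysteroid dehydrogenase gene Akr1c14 by -2.83 ± 0.61 and Keg1 by -3.00 ± 0.44. Enzymes of retinoid metabolism were among the 15. Adh4, an alcohol dehydrogenase that also oxidises retinol, went from 8.31, 9.20, 9.06 and 9.15 to 7.24, 5.59, 5.19 and 7.26, and Dhrs3, which reduces retinal, changed by -2.06 ± 0.26. Coq8a, needed for ubiquinone synthesis, changed by -2.26 ± 0.19, the medium-chain acyl-CoA synthetase gene Acsm5 by -1.96 ± 0.34 and Gm4952 by -2.74 ± 0.56. The condition on overlap left out 2 genes that passed with a larger fall than the last of the 15, Nr0b2, described with the bile acid genes, and Rnf125, a ubiquitin ligase (-2.12 ± 0.60), and no such rise.

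**Figure D2:**
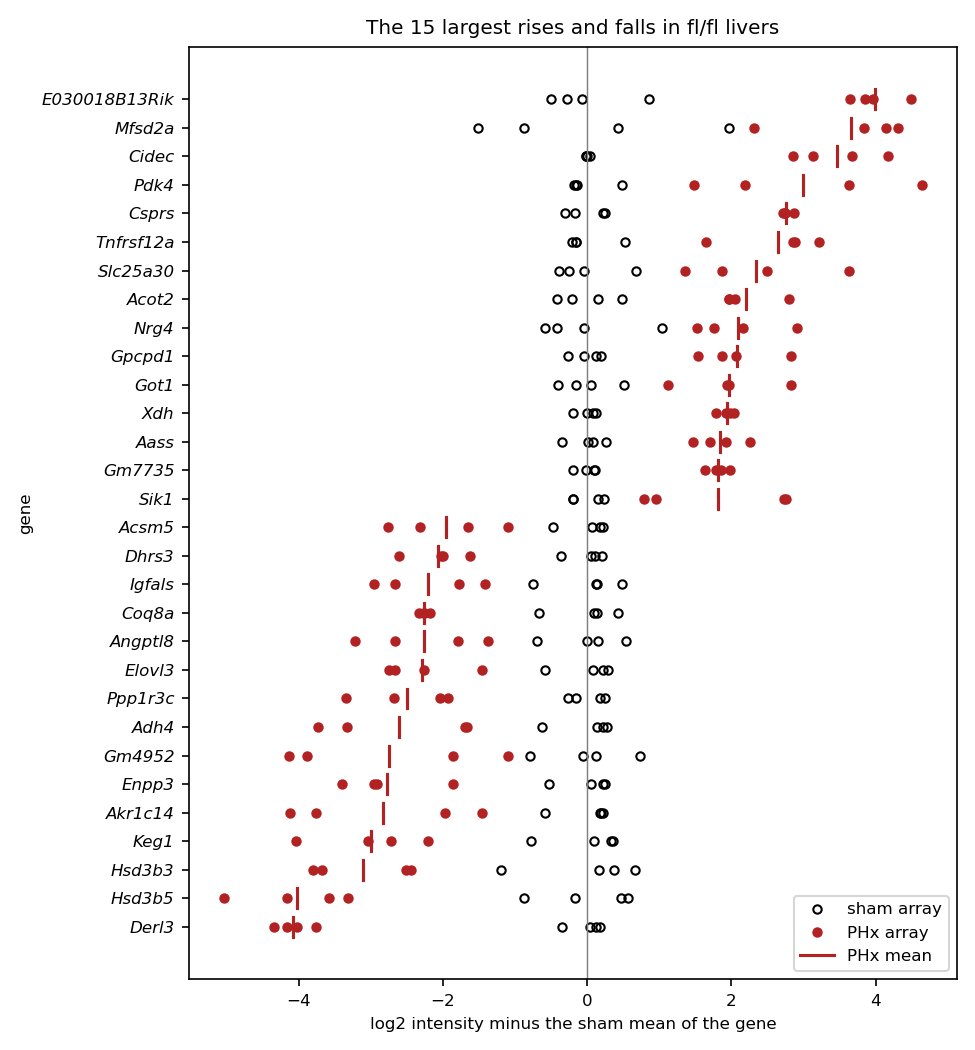
The 15 largest rises and 15 largest falls among protein-coding genes (y axis), each fl/fl array drawn as its log2 intensity minus the sham mean of that gene (x axis, log2 units), sham arrays as open circles and PHx arrays as filled circles, with a bar at the PHx mean. The 30 genes were chosen among those whose groups do not overlap, and the bar of Cidec lies at 3.46, those of Derl3 and Hsd3b5 at -4.08 and -4.02.

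The gene lists that follow were drawn up by role and are described by how many of their measured members passed in each direction. A list's counts are set against 6.18% of protein-coding genes that rose and 26.5% that fell. That base holds many genes of low level. Among the 2107 with a mean of at least 6 in 1 group, 8.26% rose and 39.6% fell. Near the latter lie the lower shares of lipoproteins (40.9%), phase II enzymes (40.7%), IL-6 family signalling (38.1%), liver transcription factors (36.7%) and ER translocation and early traffic (36.4%). The counts of those lists therefore show little about them.

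**Figure D3:**
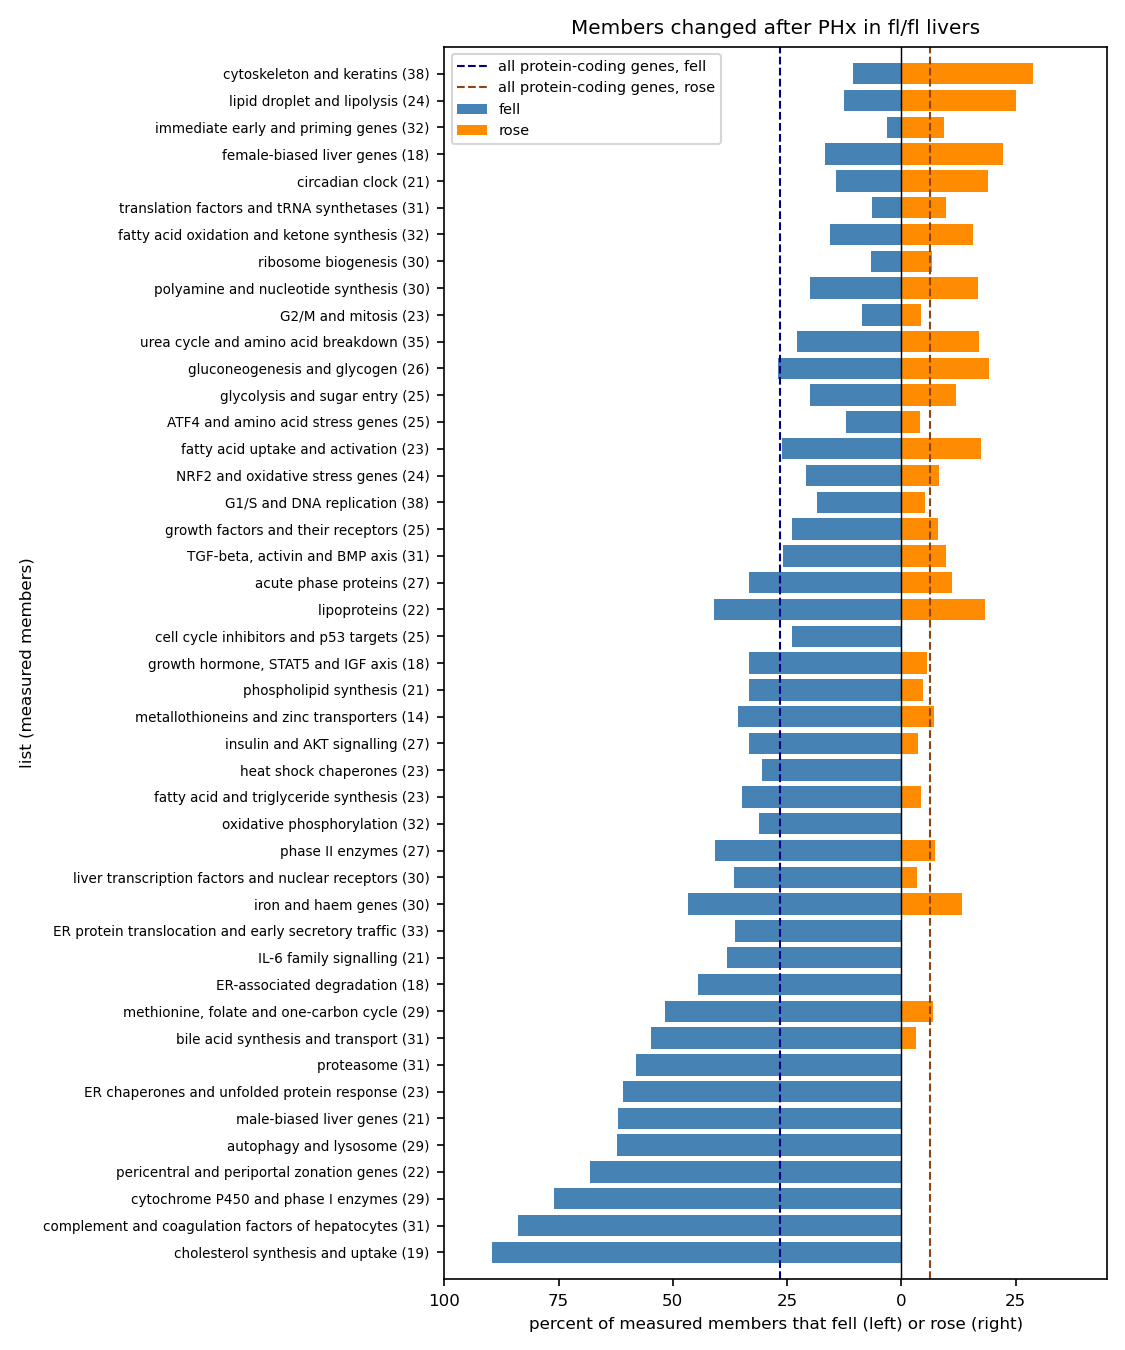
Share of the measured members of each of the 45 pathway lists (y axis, measured number in brackets) that fell (left, blue) or rose (right, orange) at an adjusted p below 0.05 (x axis, percent of measured members), with dashed lines at the shares of all protein-coding genes, 26.5% lower and 6.18% higher. Cholesterol synthesis, complement and coagulation and P450 genes have the longest bars to the left, and cytoskeleton and droplet genes the longest to the right.

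Most of the genes of the ER that fold secreted proteins fell. Of 23 measured chaperone and unfolded protein response genes, 0 rose and 14 fell, with a median of -0.52 against -0.08 over all protein-coding genes, of which 26.5% fell. After cyclic loess 10 fell and the median was -0.34. Part of this group shares a short promoter sequence, the ER stress element, which binds the factors NF-Y and ATF6 and is written as CCAAT and CCACG with 9 bases of any kind between them. It was searched on both strands in the windows of 250 bases before to 50 bases after each gene start in the RefSeq promoter table (build GRCm38.p6). It was found in 37 of 27025 genes with a window (0.137%), in 7 of the 20 chaperone and unfolded protein response genes with a window (Calr, Canx, Creld2, Dnajc3, Hsp90b1, Hspa5 and Pdia6) and in 2 of 16 ER-associated degradation genes (Derl3 and Syvn1). Its CCAAT end overlaps the CCAAT box by construction. A match is a description of the letters and shows no binding. The 250 bases before the start are printed for 4 of these genes, 5′ to 3′ on the gene's strand, with the element in capitals on either strand, so that its place can be seen beside the fall of each gene.
Derl3, chr10:75893148-75893397, plus strand: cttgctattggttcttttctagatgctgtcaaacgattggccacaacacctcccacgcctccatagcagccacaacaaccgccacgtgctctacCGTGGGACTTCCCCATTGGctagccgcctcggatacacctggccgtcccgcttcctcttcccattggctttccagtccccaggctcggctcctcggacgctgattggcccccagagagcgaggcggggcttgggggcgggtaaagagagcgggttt
Dnajc3, chr14:118937682-118937931, plus strand: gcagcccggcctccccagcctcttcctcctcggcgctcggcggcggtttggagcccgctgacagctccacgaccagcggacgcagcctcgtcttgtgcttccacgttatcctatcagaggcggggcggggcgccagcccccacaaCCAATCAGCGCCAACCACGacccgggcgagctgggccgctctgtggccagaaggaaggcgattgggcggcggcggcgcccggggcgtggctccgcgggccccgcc
Pdia6, chr12:17266339-17266588, plus strand: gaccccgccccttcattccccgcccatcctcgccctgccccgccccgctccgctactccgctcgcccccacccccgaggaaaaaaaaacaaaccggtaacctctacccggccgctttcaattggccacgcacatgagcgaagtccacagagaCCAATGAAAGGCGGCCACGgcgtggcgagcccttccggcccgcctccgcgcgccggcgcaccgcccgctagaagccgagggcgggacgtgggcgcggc
Hsp90b1, chr10:86705445-86705694, minus strand: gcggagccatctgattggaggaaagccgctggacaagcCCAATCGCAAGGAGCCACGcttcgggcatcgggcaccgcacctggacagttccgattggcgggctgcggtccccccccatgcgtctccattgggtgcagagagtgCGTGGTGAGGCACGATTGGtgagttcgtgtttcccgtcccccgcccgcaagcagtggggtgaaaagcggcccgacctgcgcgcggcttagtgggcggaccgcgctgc

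The element ended 137 bases before the start in Derl3 (reverse strand), 86 in Dnajc3 and 79 in Pdia6 (forward strand), and Hsp90b1 had a copy on each strand, at 193 and 88 bases. Dnajc3, a co-chaperone of BiP, went from 9.24, 9.15, 9.06 and 9.07 on sham arrays to 8.36, 8.12, 8.30 and 8.27 on PHx arrays, a fall of 0.87 ± 0.10 (adjusted p = 1.44e-05). The protein disulfide isomerase gene Pdia6 went from 9.21, 9.17, 9.07 and 9.11 to 8.53, 8.09, 8.16 and 8.32, and Hsp90b1, the ER member of the HSP90 family, from 10.51, 10.42, 10.45 and 10.42 to 9.99, 9.57, 9.61 and 9.80. In these 3 genes the groups did not overlap, which was so for 25.8% of all protein-coding genes in this direction and for 83.1% of those that passed as lower, so that it adds little to the call. The lectin chaperone genes Canx and Calr fell by 0.61 ± 0.07 and 0.52 ± 0.13, the latter by 0.34 after loess. The other 3 of these 9 genes did not pass. Hspa5, which encodes BiP itself, stood at 9.35, 9.41, 9.23 and 9.36 against 9.32, 8.82, 9.51 and 8.96 (-0.18 ± 0.14, adjusted p = 0.322), Creld2 at 9.22, 8.89, 8.65 and 8.77 against 8.65, 7.66, 7.98 and 7.95 (-0.82 ± 0.36, 0.0945), and Syvn1, the ubiquitin ligase of ER-associated degradation, changed by -0.25 ± 0.28 (0.524). Outside both lists the element was found in 28 genes, 19 of them measured, of which 3 fell, 0 rose and 16 did not pass. The largest of the 3 falls was that of Ero1b, an oxidase that renews disulfide isomerases (-1.12 ± 0.18). Among members with no match, Sdf2l1 changed by -1.28 ± 0.30, Hyou1 by -0.95 ± 0.21, Dnajb11 by -0.89 ± 0.19, and the stress sensor gene Ern1, which encodes IRE1α, by -0.89 ± 0.23.

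In 3 members the PHx arrays diverged from one another, and these were chosen after their values were seen. Herpud1, a membrane protein of ER-associated degradation, stood at 8.75, 8.56, 8.52 and 9.07 on sham and 8.29, 8.22, 9.67 and 7.90 on PHx arrays, Dnajb9, a BiP partner induced by XBP1, at 8.30, 7.78, 7.77 and 8.23 against 8.18, 7.80, 8.98 and 7.62, and Wfs1, which limits the ER stress response, at 5.14, 4.99, 5.09 and 5.09 against 5.18, 5.37, 5.91 and 4.78. PHx array 3 was the highest of all 8 in each of them, while array 4 was the lowest. Creld2 and Dnajc3, given above, did not have this order. None of the 3 passed (-0.21 ± 0.31, 0.13 ± 0.24 and 0.23 ± 0.18), nor did Xbp1 (-0.07 ± 0.22), the transcription factor of the IRE1 branch.

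The steps around folding followed in part. Of 18 ER-associated degradation genes 8 fell and 0 rose (median -0.24, -0.07 with 6 lower after loess). Besides Derl3 these included Edem1, which marks misfolded glycoproteins (-0.91 ± 0.12), and Derl2 (-0.79 ± 0.15). Of 33 genes of translocation and early traffic 12 fell and 0 rose, but the median of -0.17 turned to 0.01 after loess, where 5 were higher and 3 lower. Sec63, of the translocon, changed by -0.55 ± 0.08, and Rpn1, of the oligosaccharyltransferase that attaches glycans, by -0.48 ± 0.11 (-0.30 after loess). Genes of the ATF4 branch, which answers amino acid shortage and ER stress, did not move as a group, with 1 higher and 3 lower of 25. Atf5 fell by 1.28 ± 0.22, while the values of Ddit3 (0.24 ± 0.24) and Chac1 (-0.36 ± 0.29) did not pass.

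**Figure D4:**
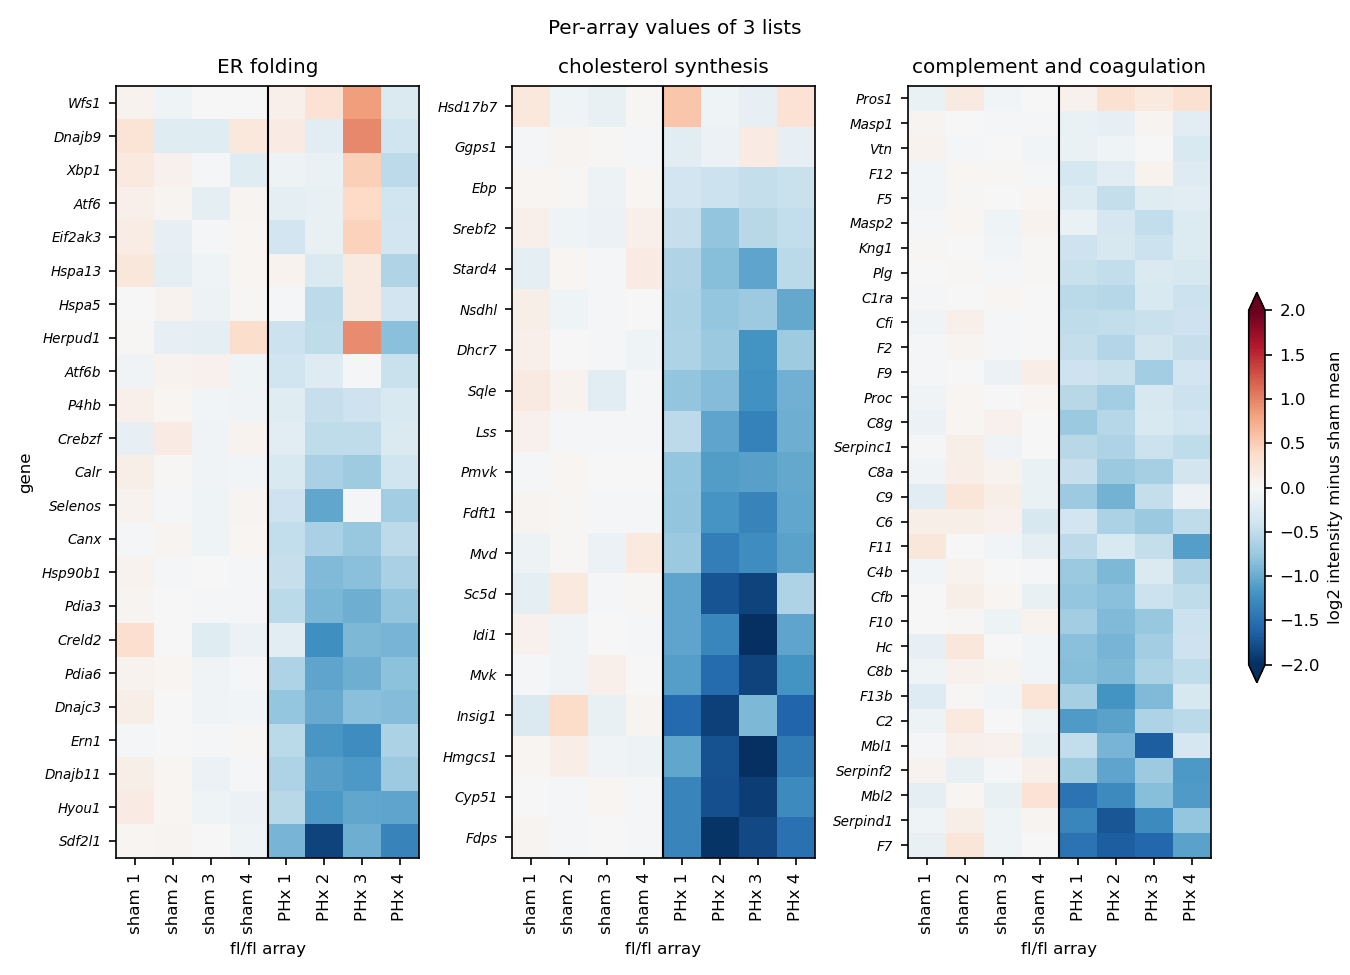
Log2 intensity minus the sham mean of each gene (colour) on the 8 fl/fl arrays (x axis) for the members of 3 lists that fell, genes of ER folding, of cholesterol synthesis and of complement and coagulation (y axis, ordered by change within a list). The PHx arrays 1 to 4 are lower than the sham arrays in most rows, PHx array 3 is higher in Herpud1, Dnajb9 and Wfs1, and values beyond 2 units from the sham mean have the end colour.

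The products of the secretory pathway of the hepatocyte fell widely in one family of plasma proteins and divided in another. Of 31 complement and coagulation factor genes, 0 rose and 26 fell, with a median of -0.56 (21 lower, 1 higher and a median of -0.38 after loess). F7, the coagulation factor VII that starts the extrinsic pathway, went from 7.55, 7.95, 7.61 and 7.70 to 6.22, 6.06, 6.14 and 6.63. Every PHx array lay below the lowest sham array. Serpind1, heparin cofactor II, went from 9.28, 9.49, 9.27 and 9.41 to 8.05, 7.65, 8.08 and 8.59, and Serpinf2, the inhibitor of plasmin, changed by -0.91 ± 0.12. The mannose-binding lectin gene Mbl2 changed by -1.19 ± 0.18. Of the complement genes, C2 changed by -0.84 ± 0.13, C8b by -0.72 ± 0.08, Hc, which encodes C5, by -0.72 ± 0.11 and C4b by -0.63 ± 0.11. Of the clotting genes, F10 changed by -0.69 ± 0.13, F13b by -0.76 ± 0.17 and the antithrombin gene Serpinc1 by -0.53 ± 0.07. The 5 members that did not pass were Masp1, Masp2, F12, Vtn and Pros1, with changes from -0.31 to 0.22.

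Acute phase genes divided. Of 27, 3 rose and 9 fell. Saa4, the constitutive serum amyloid A, fell by 1.52 ± 0.27, and Crp and Apcs, the pentraxins, by 1.25 ± 0.28 and 0.87 ± 0.17. Lbp, which carries endotoxin to CD14, went from 9.51, 9.08, 9.07 and 9.22 to 8.43, 8.33, 8.07 and 8.22, while Cd14 itself went from 3.47, 3.51, 3.03 and 2.85 to 4.50, 5.53, 6.70 and 3.57. The Cd14 rise of 1.86 ± 0.63 lost its call without any one of the 4 sham arrays or PHx array 2 or 3 (adjusted p from 0.0512 to 0.11). The value of Saa1 (-0.16 ± 0.09), which may share probes with its close copies, did not pass. Genes of IL-6 family signalling rose in 0 and fell in 8 of 21 members. The receptor genes Lifr and Il6ra changed by -0.92 ± 0.19 and -0.55 ± 0.14 (Il6ra -0.37 after loess, adjusted p = 0.0744), and Socs3, a target of STAT3, did not pass (-0.51 ± 0.21, adjusted p = 0.0675). After loess 3 of these genes were lower.

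Cholesterol synthesis had the largest share of members that fell among the 45 pathway lists. Of 19 measured genes 17 fell and 0 rose, 9 of them at least 2-fold lower (1.14% of all protein-coding genes were), with a median of -1.0, and the count was 17 after loess too. The pathway turns acetyl-CoA into mevalonate, isoprenoids, squalene and sterols, and its genes are switched on together by SREBP2 with NF-Y, which binds the CCAAT box. The falls ran through all of these stages. Hmgcs1, which makes HMG-CoA, went from 9.85, 9.94, 9.74 and 9.71 to 8.77, 8.07, 7.83 and 8.39. The mevalonate kinase gene Mvk changed by -1.42 ± 0.18, Pmvk by -1.0 ± 0.19 and Mvd by -1.11 ± 0.17. Idi1, which isomerises the isoprene unit, went from 8.34, 8.19, 8.27 and 8.23 to 7.20, 6.95, 6.12 and 7.20, and Fdps, which joins the units to farnesyl diphosphate, changed by -1.65 ± 0.21. In squalene and sterol formation Fdft1 changed by -1.09 ± 0.18, Sqle by -0.96 ± 0.24, Lss by -0.98 ± 0.26, Cyp51 by -1.56 ± 0.23 and Sc5d by -1.31 ± 0.30. Insig1, which holds SREBP in the ER when sterol is plentiful and is itself an SREBP target, went from 8.11, 8.77, 8.25 and 8.45 to 6.84, 6.53, 7.49 and 6.80. The 2 remaining genes, Hsd17b7 (0.15 ± 0.16) and Ggps1 (-0.09 ± 0.08) did not pass.

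The CCAAT box was present in all 15 genes of this list that had a promoter window, against 11096 of 27025 genes (41.1%), searched as CCAAT on both strands. It is short and frequent, it was present in the genes that did not pass too (Hsd17b7 and Ggps1), and in 50.6% of the 160 protein-coding genes at least 2-fold lower and 40.7% of the 162 at least 2-fold higher. One exact form of the SREBP element was found in no window of this list and in 27 of all (0.0999%). That says only that these letters are absent from these windows. The 250 bases before the start of 3 of these genes are shown with each CCAAT box, or its reverse complement, in capitals, since they show how the number and place of the box differ among genes that fell alike.
Hmgcs1, chr13:119690101-119690350, plus strand: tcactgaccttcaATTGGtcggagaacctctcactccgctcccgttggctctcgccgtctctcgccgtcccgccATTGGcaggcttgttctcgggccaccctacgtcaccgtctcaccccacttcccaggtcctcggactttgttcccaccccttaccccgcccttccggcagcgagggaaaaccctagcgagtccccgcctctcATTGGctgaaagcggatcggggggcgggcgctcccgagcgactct
Idi1, chr13:8885356-8885605, plus strand: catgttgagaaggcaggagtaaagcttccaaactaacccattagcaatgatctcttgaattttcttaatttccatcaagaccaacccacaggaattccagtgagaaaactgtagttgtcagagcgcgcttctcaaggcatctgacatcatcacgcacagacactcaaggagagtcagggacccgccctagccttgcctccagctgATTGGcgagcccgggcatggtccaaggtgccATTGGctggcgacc
Insig1, chr5:28071162-28071411, plus strand: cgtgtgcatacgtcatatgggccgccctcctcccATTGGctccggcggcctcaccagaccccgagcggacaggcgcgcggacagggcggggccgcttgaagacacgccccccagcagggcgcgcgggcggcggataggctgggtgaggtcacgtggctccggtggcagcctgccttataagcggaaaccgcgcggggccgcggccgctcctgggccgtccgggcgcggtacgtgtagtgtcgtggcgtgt

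Hmgcs1 had 3 boxes, Idi1 2 and Insig1 1 in these bases, with changes of -1.55 ± 0.34, -1.39 ± 0.28 and -1.48 ± 0.19.

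Of the droplet genes 25% rose, against 6.18% of all protein-coding genes, and of the fat synthesis genes 34.8% fell, which is near the 26.5% of all protein-coding genes. Of 23 genes of fatty acid and triglyceride synthesis 8 fell and 1 rose (after loess 4 and 4). Mlxipl, the carbohydrate response factor ChREBP, went from 6.83, 7.12, 6.97 and 6.86 to 5.20, 4.88, 5.62 and 5.49. The elongase gene Elovl3 fell by 2.28 ± 0.39 and the acetate activating enzyme gene Acss2 by 1.25 ± 0.16, while Lpin2, a phosphatidate phosphatase, rose by 1.13 ± 0.22. The values of Fasn, 7.66, 7.75, 7.03 and 7.45 against 6.52, 6.92, 7.42 and 6.08, overlapped and did not pass (-0.74 ± 0.28, adjusted p = 0.0534). Among 24 droplet and lipolysis genes 6 rose and 3 fell. Besides Cidec, the coat protein gene Plin4 went from 3.90, 3.72, 3.83 and 3.73 to 5.67, 6.72, 6.08 and 4.45, and Plin2 from 8.67, 8.35, 8.41 and 8.45 to 10.08, 9.87, 10.10 and 9.86, the latter with little spread in either group. Pnpla2, the lipase that opens the droplet, rose by 1.07 ± 0.22 and Plin5, which ties droplets to mitochondria, by 0.87 ± 0.15. Dgat2 and Agpat2, of triglyceride assembly, fell by 0.84 ± 0.13 and 0.71 ± 0.14.

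Fatty acid oxidation had as many members higher as lower, 5 and 5 of 32. The carnitine importer gene Slc22a5 went from 4.45, 4.79, 4.67 and 4.91 to 6.45, 6.13, 5.49 and 6.72. Pex11a, of peroxisome division, rose by 0.88 ± 0.19, and Crot and Acads, of peroxisomal and short-chain oxidation, fell by 0.98 ± 0.26 and 0.81 ± 0.11. The values of Cpt1a, the gate of the mitochondrial pathway, were 8.19, 7.87, 7.97 and 8.41 against 9.15, 8.27, 7.95 and 9.08 and did not pass (0.50 ± 0.30, adjusted p = 0.219). On arrays 1 and 4 of the PHx group Cpt1a lay above every sham array. In fatty acid uptake and activation 4 rose and 6 fell of 23. The medium-chain acyl-CoA synthetase genes Acsm1 and Acsm3 fell with Acsm5, by 0.96 ± 0.15 and 0.80 ± 0.26. The Acsm3 call was lost without sham array 3 or 4 or PHx array 2 or 3 (adjusted p from 0.0509 to 0.0898), after loess (0.0902) and after median subtraction (0.0514). Slc27a5, which activates bile acids and fatty acids, changed by -0.56 ± 0.10, while the thioesterase gene Acot2 rose as given above. Among the lipoprotein genes 4 rose and 9 fell of 22. Angptl8, which restrains lipoprotein lipase after feeding, fell by 2.26 ± 0.45, Apoa5, which stimulates that lipase, rose by 0.68 ± 0.18, and the apolipoprotein gene Apoc1 changed by -0.48 ± 0.06 (-0.30 after loess). Of 21 phospholipid synthesis genes 7 fell, among them the phosphatidylethanolamine pathway genes Selenoi (-0.91 ± 0.15), Etnk1 (-0.80 ± 0.15) and Pcyt2 (-0.58 ± 0.08).

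Bile acid genes fell more often than they rose, 17 against 1 of 31 (median -0.49, with 9 lower and 3 higher after loess). Transporters of the sinusoidal and canalicular membranes were the clearest. Slco1b2, an uptake carrier, went from 8.89, 9.17, 9.31 and 9.36 to 7.71, 7.16, 7.01 and 8.30, and Abcb11, the bile salt export pump, from 8.03, 8.84, 8.25 and 8.59 to 5.87, 7.30, 7.88 and 6.65. The sodium-coupled uptake gene Slc10a1 changed by -0.80 ± 0.19 and Klb, the FGF15 co-receptor β-Klotho, by -1.5 ± 0.33. In synthesis, Hsd3b7 changed by -1.24 ± 0.25 and Cyp39a1 by -1.22 ± 0.20. The key enzyme genes of the pathway spread too widely among the PHx arrays to pass. Cyp7a1, which sets the rate of synthesis, stood at 4.37, 9.23, 7.26 and 7.42 on sham and 5.43, 5.50, 1.93 and 7.82 on PHx arrays (-1.90 ± 1.23, adjusted p = 0.255), and Cyp8b1, which makes cholic acid, at 8.03, 8.33, 8.31 and 8.55 against 7.31, 3.95, 3.62 and 8.34 (-2.50 ± 0.95, 0.0549). Cyp7a1 spread widely among the sham arrays too, and PHx array 3 was the lowest of all. For Cyp8b1, PHx arrays 2 and 3 were low while array 4 lay within the sham range. Nr0b2, which encodes the repressor SHP, went from 6.32, 6.26, 6.36 and 6.77 to 3.25, 3.13, 7.19 and 3.96, and its fall of 2.05 ± 0.73 (adjusted p = 0.0431) lost its call without any one of the other 7 arrays (0.0693 to 0.128) but not without PHx array 3, the array that lay above every sham array. It also lost it with the 8 fl/fl arrays alone (0.0815), after loess (0.0767) and after median subtraction (0.0501).

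Wide spread of this kind was more frequent in the PHx group. Of the 2107 protein-coding genes with a mean of at least 6, 47 had an SD above 1 log2 unit among the 4 PHx arrays and 3 among the 4 sham arrays, and 236 against 36 had an SD above 0.5. Cyp7a1 had the highest SD in the PHx group. Besides the bile acid genes, Cdkn1a, the cell cycle inhibitor p21, stood at 7.12, 8.59, 8.94 and 4.48 on PHx arrays 1 to 4 and at 7.85, 6.16, 5.73 and 6.24 on the sham arrays. Cyp4a14, a fatty acid hydroxylase driven by PPARα, stood at 10.53, 8.78, 6.11 and 9.69, and Nr1i3, the receptor CAR, at 8.29, 6.57, 5.08 and 8.20. G6pc, the last enzyme of glucose release, stood at 9.52, 9.21, 6.39 and 9.35 and Igfbp1 at 7.65, 10.12, 9.11 and 7.15. Array 3 was the lowest of the 4 in Cyp7a1, Cyp8b1, Cyp4a14, Nr1i3 and G6pc and the highest in Cdkn1a and Pdk4, and array 4 was the lowest in Cdkn1a, Igfbp1 and Pdk4. The changes of Cyp4a14 (1.29 ± 1.11), Nr1i3 (-0.02 ± 0.65), G6pc (-0.52 ± 0.69), Igfbp1 (1.33 ± 0.73) and Cdkn1a (0.79 ± 0.88) did not pass. The labels name no batch for these arrays.

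**Figure D5:**
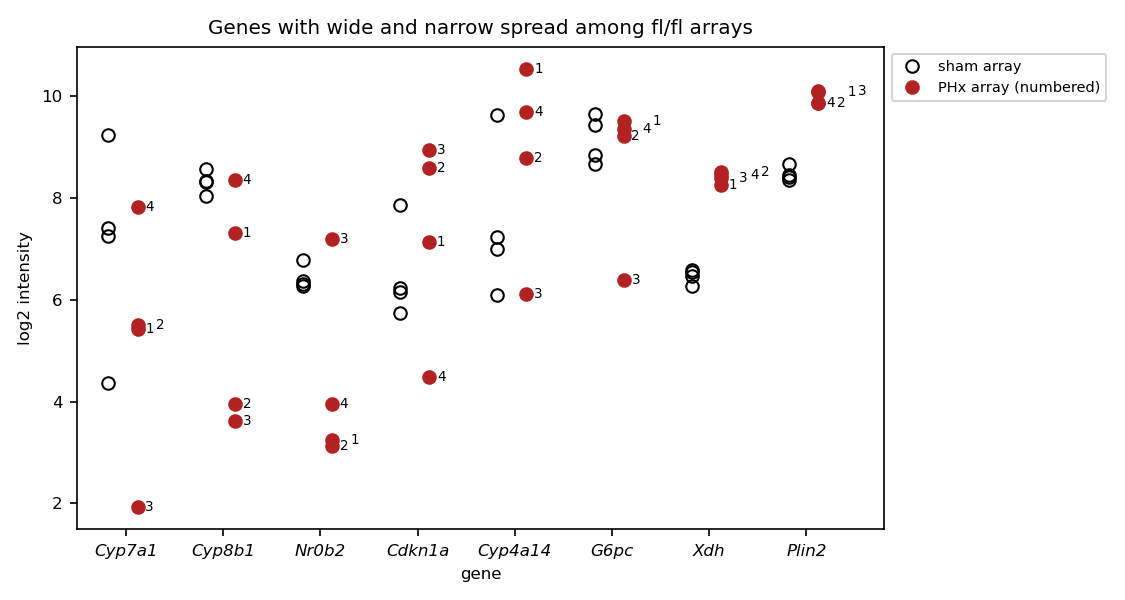
Log2 intensity (y axis) of 8 genes on the 4 sham arrays (open circles) and the 4 PHx arrays (filled circles, numbered 1 to 4) of fl/fl livers. In Cyp7a1 the PHx arrays run from 1.93 to 7.82, while Xdh and Plin2, drawn for comparison, separate the groups with little spread. The name of the Xdh probe set is less sure, since its identifier names another chromosome than RefSeq gives for the gene.

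Male-biased liver genes, which follow the pulses of growth hormone, fell more than they rose. Of 21 male-biased genes 13 fell and 0 rose (after loess 6 and 0). Selenbp2 changed by -1.07 ± 0.27 and the uptake carrier gene Slco1a1 by -0.91 ± 0.14, in addition to Hsd3b5, Keg1 and Elovl3. Of 18 female-biased genes 4 rose and 3 fell. Sult1e1, the oestrogen sulfotransferase, stood at 1.84, 1.17, 1.48 and 1.46 on sham and at 2.56, 5.76, 6.56 and 1.80 on PHx arrays. PHx array 3 was highest and array 4 lay within the sham range, and its rise of 2.68 ± 0.92 lost its call without PHx array 2 or 3 or any one sham array (adjusted p from 0.0553 to 0.113). Of 18 genes of growth hormone signalling 6 fell and 1 rose. Ghr, the receptor, changed by -0.70 ± 0.18 and the transcription factor gene Stat5b by -0.61 ± 0.08. Igfals, which keeps IGF-1 in the circulation, went from 5.62, 6.49, 6.51 and 6.85 to 4.60, 3.70, 3.41 and 4.95, while Igf1 itself did not pass (0.31 ± 0.12, adjusted p = 0.0572). After loess Igf1 passed as higher (0.49, adjusted p = 0.013). Lepr, the leptin receptor gene, went from 2.40, 2.33, 2.27 and 2.33 to 4.02, 5.24, 5.37 and 3.71.

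Enzymes of drug and hormone clearance fell widely on the deposited scale. Of 29 cytochrome P450 and other phase I genes 22 fell and 0 rose, with a median of -0.46, and after loess 9 fell. Cyp26a1, which degrades retinoic acid, changed by -1.47 ± 0.31, and the aldehyde oxidase gene Aox3 went from 8.45, 9.42, 9.32 and 9.04 to 7.25, 7.20, 8.36 and 7.99. Cyp2r1, a vitamin D 25-hydroxylase, changed by -1.35 ± 0.19, Cyp2j5 by -0.99 ± 0.14 and Cyp1a2, which oxidises caffeine and aromatic amines, by -0.74 ± 0.13. Of 27 phase II genes 11 fell and 2 rose. Inmt, a methyltransferase of amines, changed by -1.41 ± 0.35, the sulfotransferase gene Sult2a8 by -1.11 ± 0.22 and the glucuronosyltransferase gene Ugt2b34 by -1.06 ± 0.15, while Sult1a1 rose by 0.54 ± 0.10. The P450, sulfotransferase and Ugt2b families hold close copies, and values within each are uncertain for that reason. Zonation genes, which mark the ends of the lobule, fell on both sides. Of 22, 15 fell (8 after loess), and these held the pericentral genes Lgr5 (-1.32 ± 0.28), Notum (-0.89 ± 0.12), Axin2 (-0.48 ± 0.12) and Rgn (-0.89 ± 0.14), the first 3 being Wnt targets, and genes of the periportal side such as Ctsc (-1.03 ± 0.21). No test compared the zones.

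Nitrogen metabolism moved in parts. Of 35 urea cycle and amino acid breakdown genes 6 rose and 8 fell. Within the urea cycle, Slc25a15, the ornithine carrier, went from 7.85, 8.11, 7.67 and 8.07 to 8.81, 9.68, 8.83 and 9.13, Asl, argininosuccinate lyase, from 8.54, 8.46, 8.24 and 8.64 to 9.20, 9.45, 8.82 and 10.05, and Arg1 rose by 0.77 ± 0.11. Cps1, its entry enzyme, did not pass (0.45 ± 0.18, adjusted p = 0.0601) but did after loess (0.63, 0.0131), and the activator gene Nags fell by 0.67 ± 0.11. Slc7a2, the arginine carrier of hepatocytes, rose by 1.19 ± 0.30. Bckdha, of branched-chain amino acid oxidation, fell by 0.85 ± 0.15. The methionine, folate and one-carbon list went mainly down, with 15 lower and 2 higher of 29, and 11 lower after loess. Bhmt, which remethylates homocysteine with betaine, went from 10.94, 10.95, 10.53 and 10.96 to 10.03, 10.08, 9.46 and 10.05, and Cbs, which commits homocysteine to cysteine, changed by -0.80 ± 0.13. The glycine cleavage genes Amt, Gldc and Gcsh changed by -1.19 ± 0.20, -0.75 ± 0.12 and -0.68 ± 0.08, and the mitochondrial serine enzyme gene Shmt2 by -1.0 ± 0.09. Nnmt, which methylates nicotinamide, rose by 0.83 ± 0.17.

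Glucose genes moved both ways. Of 26 genes of gluconeogenesis and glycogen 5 rose and 7 fell. The glycogen-targeting phosphatase subunit genes Ppp1r3c and Ppp1r3b went from 6.66, 7.17, 7.09 and 6.76 to 4.99, 4.24, 3.57 and 4.88 and from 6.79, 7.69, 6.79 and 7.18 to 5.22, 5.29, 4.59 and 5.53, without overlap. The glycogen phosphorylase gene Pygl and the glucagon receptor gene Gcgr changed by -0.82 ± 0.13 and -0.98 ± 0.16. Ppargc1a, the coactivator that drives gluconeogenesis in fasting, went from 3.53, 4.24, 3.99 and 4.55 to 5.11, 7.70, 5.05 and 5.75, and the alanine aminotransferase gene Gpt2 rose by 1.03 ± 0.27. The rate-setting enzyme gene Pck1 did not pass (0.36 ± 0.28, adjusted p = 0.357). In the 27 genes of insulin and AKT signalling 9 fell and 1 rose, among them Sgk2 (-1.11 ± 0.22) and Irs1 (-0.94 ± 0.24), and after loess 3 fell. In glycolysis and sugar entry 3 rose and 5 fell of 25, with Aldoa at 0.51 ± 0.11 and Slc2a9, the urate and sugar carrier, at -0.76 ± 0.13.

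Clock genes moved in opposite directions. Of 21 genes 4 rose and 3 fell. Arntl, which encodes BMAL1, went from 5.61, 5.74, 5.44 and 5.07 to 3.54, 4.06, 4.31 and 3.29, and its relative Npas2 changed by -1.07 ± 0.14. The repressor genes Per1 and Per2 went from 4.58, 4.15, 4.06 and 4.71 to 5.43, 5.46, 5.65 and 4.99 and from 4.24, 4.41, 4.16 and 4.40 to 5.68, 5.15, 5.59 and 5.57, and the clock output gene Wee1, a mitotic inhibitor, rose by 1.41 ± 0.21. The groups did not overlap in these genes. The PAR factor gene Dbp did not pass (0.52 ± 0.21, adjusted p = 0.0685), nor did Nr1d1 (-0.49 ± 0.26, 0.161). After loess Dbp passed as higher (0.66, adjusted p = 0.0348). The labels give the time after the operation and not the hour of the day at which each liver was taken, so hour and operation cannot be told apart here.

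Iron genes moved both ways. Of 30 iron and haem genes 4 rose and 14 fell. Hamp, the hepcidin gene that limits iron release into blood, went from 10.54, 9.27, 9.83 and 10.08 to 11.55, 11.63, 11.13 and 10.93, and its close copy Hamp2, which may share probes with it, rose by 1.09 ± 0.24. Hmox1, which breaks down haem, went from 5.38, 4.71, 5.0 and 5.18 to 6.40, 6.44, 7.21 and 5.68, and Alas1, the first enzyme of haem synthesis, rose by 1.23 ± 0.29. Regulators of hepcidin fell, with hemojuvelin, Hjv, which raises it, at -0.63 ± 0.15, and Tmprss6, the protease that cuts hemojuvelin, at -0.63 ± 0.13. Bmp2 changed by -0.74 ± 0.12, while Id1, a target of BMP signals, rose by 0.70 ± 0.11. The iron carrier gene Slc11a2 fell by 0.93 ± 0.13. Slc30a10, a manganese exporter counted in the zinc transporter list and not in this one, fell by 1.46 ± 0.30.

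Genes of priming and of the cell cycle were counted next. Of 32 immediate early and priming genes 3 rose and 1 fell, Sik1, Jun and Klf6 being those that rose. Jun stood at 4.52, 3.82, 4.05 and 4.06 on sham and 4.65, 5.56, 5.64 and 4.45 on PHx arrays, where array 4 lay within the sham range. Klf6 went from 3.95, 3.81, 3.66 and 3.68 to 4.97, 6.41, 6.16 and 4.07, with array 2 highest and arrays 1 and 4 lowest, and lost its call without sham array 3 or PHx array 2 or 3 (adjusted p from 0.0511 to 0.0719). Of 38 G1/S and replication genes 2 rose and 7 fell, and of 23 mitotic genes 1 and 2, where 6.18% and 26.5% of all protein-coding genes rose and fell. Ccne1, the cyclin that opens S phase, rose by 0.51 ± 0.14 from 2.99, 2.64, 2.84 and 2.74 to 3.13, 3.51, 3.43 and 3.18. The replication genes Rrm2 (0.33 ± 0.19, adjusted p = 0.207) and Mcm4 (0.19 ± 0.11, 0.21) and the mitotic gene Mki67 (-0.10 ± 0.13, 0.592) did not pass. The mean level of the mitotic list was 1.79 to 1.88 on sham and 1.77 to 1.83 on PHx arrays, close to the negative controls, so changes there were hardly measurable. Among supply genes, Odc1, the first enzyme of polyamine synthesis, rose by 0.74 ± 0.13, and Ctps, which makes CTP, by 0.85 ± 0.23.

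Receptors and inhibitors of growth fell in shares near the 26.5% of all protein-coding genes, so their counts show nothing about these lists. Of 25 growth factor and receptor genes 2 rose and 6 fell. Btc, the EGF receptor ligand betacellulin, went from 3.79, 3.89, 3.91 and 3.84 to 4.26, 5.28, 5.16 and 4.27. Egfr (-0.46 ± 0.28, adjusted p = 0.216) and Hgf (0.12 ± 0.19, 0.656) did not pass. Of 31 genes of the TGF-β, activin and BMP axis 3 rose and 8 fell (2 after loess), and of 25 cell cycle inhibitor and p53 target genes 6 fell and 0 rose (3 lower and 1 higher after loess). In oxidative stress, 2 of 24 genes rose and 5 fell, with Ugdh, which makes UDP-glucuronate, at -0.74 ± 0.14 and the catalase gene Cat at -0.49 ± 0.10 (-0.32 after loess). Of 14 metallothionein and zinc transporter genes 1 rose and 5 fell, among the latter Slc39a8, an importer of zinc and manganese (-0.69 ± 0.11). The only fall of at least 2-fold in that list was that of Slc30a10, given with the iron genes.

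The cytoskeleton had more members that rose than fell, 11 against 4 of 38, and kept that excess after loess (14 against 1). The keratin pair of the hepatocyte went up together, Krt8 from 7.81, 7.81, 7.79 and 7.82 to 8.51, 9.62, 10.03 and 8.16 and Krt18 from 8.34, 8.03, 8.11 and 8.01 to 8.99, 9.60, 10.01 and 8.63. Tagln2 rose by 0.78 ± 0.18, the tropomyosin gene Tpm4 by 0.77 ± 0.16, the filamin gene Flna by 0.73 ± 0.16 and the myosin light chain gene Myl12a by 0.66 ± 0.12. The marker list of the bile duct cell, which also carries these keratins, did not follow, with 0 higher and 2 lower of 8 and a list mean of 2.70 to 2.83 on sham and 2.58 to 2.84 on PHx arrays. Krt19, a defining marker, stood at 2.57 on sham and 2.38 on PHx arrays on average.

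Ribosome genes depended on the scaling. Of 30 ribosome biogenesis genes 2 rose and 2 fell, but 14 rose and 1 fell after loess. Nop2, an rRNA methyltransferase, rose by 0.56 ± 0.16. Of 31 translation genes 3 rose and 2 fell, with the arginyl-tRNA synthetase gene Rars at 0.64 ± 0.18 and the threonyl one, Tars, at -0.82 ± 0.12. Protein disposal genes fell more often. Of 29 autophagy and lysosome genes 18 fell (9 after loess), with Gabarapl1, of the autophagosome membrane, from 6.31, 6.73, 6.82 and 6.86 to 5.14, 5.50, 5.20 and 5.70 and the kinase gene Ulk2 at -0.97 ± 0.20. Of 31 proteasome genes 18 fell by small amounts (median -0.26, and -0.08 with 6 lower after loess). Cytosolic chaperones fell in 7 of 23 members (30.4%, near the 26.5% of all protein-coding genes), with Fkbp4, a partner of HSP90, at -1.36 ± 0.26 and Stip1, which links HSP70 to HSP90, at -0.95 ± 0.25. Respiratory chain genes fell in 10 of 32 (31.2%, near that share too), but their median of -0.17 was 0.00 after loess, where 1 was higher and 1 lower.

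Liver transcription factors fell in 11 and rose in 1 of 30 members. Cebpa, which holds hepatocytes in the differentiated resting state, went from 6.49, 7.02, 7.17 and 6.83 to 5.59, 4.94, 5.44 and 6.23. Nr5a2 changed by -0.78 ± 0.15, the thyroid hormone receptor gene Thrb by -0.75 ± 0.10 and the glucocorticoid receptor gene Nr3c1 by -0.65 ± 0.11. Hnf4a, the central factor of hepatocyte identity, did not pass (7.83, 7.65, 7.47 and 7.62 against 7.28, 7.16, 7.71 and 7.46, adjusted p = 0.123). Ppara itself stood at 6.45, 7.02, 6.99 and 6.77 on sham and 6.97, 6.08, 5.68 and 7.24 on PHx arrays and did not pass (-0.32 ± 0.33, 0.498). On the PparaΔHep arrays it stood at 6.29, 6.43, 6.43 and 6.05 after sham and 6.26, 5.02, 5.28 and 4.70 after PHx, with no overlap between the genotypes after sham and overlap after PHx. The deleted exons are not given by the labels, and the probe set may lie outside them, so this is no check of the genotype.

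These are bulk values, in which fewer cells of a type and less RNA per cell cannot be told apart. Hepatocyte markers were high on all arrays, with a mean over 15 genes of 10.63 to 10.79 on sham and 10.56 to 10.62 on PHx arrays. Of these markers 7 fell and 0 rose, with a median of -0.13 that was 0.04 after loess. Of 12 markers of sinusoidal endothelium 6 fell and 1 rose, with a mean level of 5.33 to 5.39 on sham and 5.02 to 5.28 on PHx arrays. Clec4g, a lectin of these cells, went from 6.86, 6.86, 6.96 and 6.97 to 5.85, 5.93, 5.38 and 5.94, Kdr, the VEGF receptor, from 5.61, 5.80, 5.90 and 5.93 to 4.98, 4.55, 4.50 and 5.13, and Dnase1l3 changed by -0.74 ± 0.11. Stab2 (0.13 ± 0.10) did not pass but was higher after loess (0.30, adjusted p = 0.0362). The marker that rose was Lyve1, from 5.96, 5.15, 5.06 and 5.49 to 6.23, 7.64, 7.62 and 5.63 (adjusted p = 0.0428). Its PHx array 4 lay within the sham range. Kupffer cell and macrophage markers fell in 4 and rose in 1 of 12, with Csf1r at -0.66 ± 0.12 and the Kupffer cell genes Clec4f (-0.37 ± 0.16, adjusted p = 0.0916) and Vsig4 (-0.58 ± 0.26, 0.0997) not passing. Cd5l, also a Kupffer cell gene, was the 1 member that fell at least 2-fold, and the member that rose is not named here. Stellate cell markers fell in 4 of 13 (30.8%, near the 26.5% of all protein-coding genes), with Lrat, which stores retinol as esters, at -1.10 ± 0.28 and Rgs5 at -0.99 ± 0.19. Lymphocyte, neutrophil, monocyte, pancreas and adipocyte lists had means between 1.90 and 3.45 on the fl/fl arrays, the highest that of neutrophil markers on a PHx array (2.36 to 3.45, against 2.43 to 2.82 on sham), where 1 of 11 rose and 1 fell. Of 8 monocyte markers 2 rose, Ly6c1 (0.46 ± 0.13) and Itgam (0.38 ± 0.12), and 1 fell, Lyz2 (-0.95 ± 0.22), which Kupffer cells share. Both rises lost their call without sham array 4 or PHx array 2 (adjusted p from 0.0515 to 0.0693). Adipoq, which defines adipocytes, stood at 1.21 on sham and 1.25 on PHx arrays on average, beside the rises of Cidec, Plin4 and Fabp4 (0.96 ± 0.21), which adipocytes also express, and of the 7 adipocyte markers only Fabp4 rose. The part of cell composition in the liver-wide changes was not tested.

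Noncoding genes carried many of the largest rises. Over all described genes 9.84% rose, 2% at least 2-fold, and 22.1% fell. Of 955 snoRNA genes 431 rose and 150 fell. The 151 that rose at least 2-fold all had probe sets on chromosome 7, where 205 of the 955 lie, and their 8 fl/fl values formed only 61 distinct sets, so many of these genes repeat one measurement. Their median of the sham means was 0.95 and that of the PHx means 5.03. The chromosome Y probe sets rose on the same arrays by a similar amount, and the part of that shift in the snoRNA values was not tested. Of 600 miRNA genes 158 rose, 35 at least 2-fold, and 43 fell, 0 at least 2-fold. A mature sequence was at hand for 16 of the 35 in the RefSeq table, with 16 distinct seeds among 18 sequences. Of the 35, 13 had a probe set whose identifier names another chromosome than RefSeq gives for the gene, or none, against 45 of all 600 miRNA genes, so their names are less sure. Mature sequences are shown for 4 genes whose probe set and gene lie on the same chromosome, the largest rise and 3 members of the repeat-rich mir-466 and mir-669 groups, with bases 2 to 8 (the seed that pairs with targets) in capitals.
Mir101c, mmu-miR-101c: aCAGUACUgugauaacuga
Mir466j, mmu-miR-466j: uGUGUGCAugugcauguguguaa
Mir466k, mmu-miR-466k: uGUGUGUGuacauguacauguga
Mir669n, mmu-miR-669n: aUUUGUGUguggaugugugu

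The seeds of these 4 differ. Mir101c stood at 1.21, 1.47, 1.31 and 1.32 on sham and 7.17, 7.28, 7.34 and 7.17 on PHx arrays, and in PparaΔHep livers it rose by 5.58 ± 0.14. Mir466j, Mir466k and Mir669n, whose sequences are runs of short repeats, rose by 1.5 ± 0.07, 1.30 ± 0.07 and 1.17 ± 0.08. The values do not distinguish a mature miRNA from its precursor, its host transcript or other RNA with the same repeat. These rises moved with the chromosome Y probe sets across the same arrays, and the part of that shift in them was not tested. Among long noncoding RNAs with a mean of at least 5 in 1 group, 1700066C05Rik (1.72 ± 0.09) and Gm15384 (1.56 ± 0.06) rose at least 2-fold, and C730036E19Rik (-2.78 ± 0.46) had the largest fall. In PparaΔHep livers 1700066C05Rik rose by 1.80 ± 0.09. The part of the chromosome Y shift in the rises of 1700066C05Rik and Gm15384 was not tested either.

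The response was set against that of the PparaΔHep livers, which have their own sham arrays. In the test of the difference between the 2 PHx changes, 0 of 28335 genes passed with limma (smallest adjusted p = 0.286), while 3269 had an unadjusted p below 0.05 (11.5%). The design of 4 arrays a group and the spread among PHx arrays limit this test, and a p above the threshold does not show that the responses were alike. Without PHx fl/fl array 3 the difference passed for Slc22a5 (1.51, adjusted p = 0.0482) and Elmod3 (1.19, 0.0482), and without array 4 for 4930578G10Rik (0.76, 0.0324). Several of the largest rises of the fl/fl livers had unequal values in the 2 genotypes. These genes were ranked on their fl/fl change, which by itself favours a smaller value in the other genotype. Cidec rose by 3.46 ± 0.38 in fl/fl and by 1.11 ± 0.38 in PparaΔHep livers (difference 2.35 ± 0.54, adjusted p = 0.315), where its PHx arrays stood at 2.99, 3.26, 5.27 and 4.25. Acot2 changed by 2.20 ± 0.39 and 0.01 ± 0.39 (difference 2.19 ± 0.55, 0.327), and Pdk4 by 2.99 ± 0.59 and 1.12 ± 0.59 (difference 1.87 ± 0.84, 0.424). Outside lipid genes, E030018B13Rik changed by 3.99 ± 0.31 and 2.70 ± 0.31 (difference 1.29 ± 0.44, 0.354). Csprs changed by 2.76 ± 0.13 and 2.26 ± 0.13 (difference 0.50 ± 0.19, 0.369). For Slc22a5 the changes were 1.49 ± 0.20 and 0.22 ± 0.20. By contrast Derl3 changed by -3.59 ± 0.44 in PparaΔHep livers, Hsd3b5 by -3.68 ± 0.37, Xdh by 1.91 ± 0.09, Tnfrsf12a by 2.81 ± 0.36 and Aass by 1.76 ± 0.20, each within 1 SE of the difference from its fl/fl value. In the lists, 18 cholesterol, 27 complement and coagulation and 14 ER chaperone genes were lower after PHx in PparaΔHep livers, where 24.5% of protein-coding genes were. Last among the 10 genes with the smallest p of the difference was Creb3l3, a hepatocyte transcription factor of lipid metabolism, which rose by 0.39 ± 0.07 in fl/fl livers and changed by -0.10 ± 0.07 in PparaΔHep livers (difference 0.49 ± 0.10, adjusted p = 0.286). The others were miRNA genes, a long noncoding RNA gene, a pseudogene and other protein-coding genes, with the same adjusted p. They are not described, so Creb3l3 does not stand for the 10.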

How the data were processed

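Liver RNA of 16 arrays in 4 groups of 4 was used, and the results are on the 8 fl/fl arrays. The deposited values are log2 intensities summarised per probe set with RMA (background correction and normalization between arrays), per the submitters' processing notes, and no source used here names its software, version or genome build. Array medians over all probe sets still ran from 2.04 to 2.08 on sham and from 2.14 to 2.19 on PHx fl/fl arrays, so other scalings were tried. Signals near the antigenomic and control medians carry little information, and only 4 arrays a group limit the precision.

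Probe sets were named from the platform annotation with symbols updated through the RefSeq gene table (827 changed). Of 72688 probe sets, 30604 had 1 symbol, 2146 several and 39938 none. For the 355 genes with several probe sets, that with the highest mean was used. All 30142 genes were fitted with limma 3.58.1 (R 4.3.3) with 1 mean per group over 16 arrays (12 residual degrees of freedom), eBayes and Benjamini-Hochberg adjustment over all of them, with a threshold of 0.05. Errors are SE of the log2 difference, which is PHx minus sham. On simulated data with 200 changed genes of 30142 in the fl/fl comparison, 80.3%, 94% and 100% of changes of 0.5, 1 and 2 log2 units were recovered, with 14 false calls. The simulated noise was independent, with 1 spread per gene in all groups and no shift between arrays. It therefore lacks the wider PHx spread and the array shifts of these data, and its rates check the fit only.

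Named genes are the 15 largest rises and falls among protein-coding genes with no overlap between groups and a mean of at least 6, up to 5 of the largest changes in each pathway list, and members looked for by role. Of the 10 genes of smallest p for the difference between genotypes only Creb3l3 is named. Ero1b, Rnf125, Eif2s3y, Uty, Sly, Elmod3, 4930578G10Rik, 1700066C05Rik, Gm15384, C730036E19Rik, Lyve1, Cd5l and the miRNAs shown were chosen after their values were seen. Lyve1 and Cd5l were not part of the checks by array and by setting below. Some list members that did not pass, with changes near 0, are counted in their lists and not named. The lists and the comparison were chosen with earlier results of these data known. Alternatives were cyclic loess between arrays, subtraction of each array's protein-coding median, the 8 fl/fl arrays alone, an intensity trend with robust moderation, a minimum mean of 4, protein-coding genes only, the mean of all probe sets and leaving out each fl/fl array. Probe sets without 1 symbol were left out. Promoter windows were searched on both strands for 12 exact motifs (SREBP, ER stress, PPAR, antioxidant, AP-1, cAMP, heat shock, metal and STAT elements, E-box, D-box and CCAAT box), of which 3 are described.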

Additional observations from a re-analysis of the deposited data

Results flagged for a closer look

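For 247 genes named in the text, each group of 4 fl/fl arrays was examined for an array far from the other 3. In 28 of 494 groups the gap to the nearest array exceeded Dixon's 95% limit, where chance gives about 1 in 20 groups, and the values are given without explanation. PHx array 3 had 7 of the 13 cases in the PHx group. It was the lowest in G6pc (6.39, nearest 9.21), Crp (6.91, 8.30), Bhmt (9.46, 10.03), Pck1 (9.30, 9.88), Stab2 (5.70, 5.88) and Sly (4.62, 5.03) and the highest in Gm15384 (8.46, 8.29). PHx array 1 was highest in Acot2 (8.13, 7.38) and lowest in Uty (4.63, 4.75), array 2 highest in Rrm2 (3.59, 2.58) and lowest in Slc11a2 (4.70, 5.01), and array 4 lowest in Id1 (4.70, 5.03) and highest in Nr1d1 (4.76, 4.32). Sham array 1 was the lowest in Adh4 (8.31, 9.06), Akr1c14 (7.36, 8.11), Sult2a8 (8.28, 9.12) and Slc39a8 (5.19, 5.51) and the highest in Lss (6.51, 6.39) and Tnfrsf12a (5.26, 4.57). Sham array 2 was highest in Pdk4 (4.82, 4.20) and Pygl (8.0, 7.59), and array 3 lowest in Bhmt (10.53, 10.94) and Rars (5.71, 6.01). Sham array 4 was lowest in Aldoa (5.63, 5.72) and highest in Acsm3 (7.21, 6.84), Cyp26a1 (4.90, 4.32), Dbp (4.03, 3.69) and Pck1 (9.91, 9.31).

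A signal outside the described genes stood above the sham level in all 4 set-aside classes. The lowest PHx array had a median of 4.99 for chromosome Y probe sets, 2.22 for Speer genes, 1.33 for olfactory genes and 1.23 for vomeronasal genes, against highest sham medians of 1.88, 1.88, 1.16 and 1.07. What produced this was not tested, and a batch that followed the operation cannot be told apart from it.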

How the results depend on the processing

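The count of 9052 genes stayed within 1.5 times under cyclic loess, median subtraction, the 8 fl/fl arrays alone, trend and robust moderation and the mean of probe sets (6878 to 9662). Where fewer genes were tested it was 3998 (minimum mean of 4) and 5859 (protein-coding genes only), and the count of 848 genes at least 2-fold changed was 403 and 409. The share of higher genes, 30.8%, was 52.9% after loess, 67.6% after median subtraction, 15.9% with the minimum mean and 18.8% among protein-coding genes, so the direction of small changes rests on the scaling, while the cause of the shift was not tested. Leaving out 1 array gave 7003 to 8874 genes, 768 to 1033 at least 2-fold (238 to 438 of them lower, the highest without PHx array 4, against 282), a share of 29.6% to 33.8%, and 0 to 2 genes for the difference between genotypes, which was 0 in every other alternative run (it could not be fitted on the 8 fl/fl arrays). Of 206 named genes that passed and were checked, 8 lost their call without 1 array (Mfsd2a, Cd14, Nr0b2, Sult1e1, Klf6, Acsm3, Ly6c1, Itgam) and 5 in other settings (Il6ra, Nr0b2, Krt19, Sult1e1, Acsm3), Krt19 changing by -0.08 after median subtraction (adjusted p = 0.148). Some named genes gained a call. After loess these were Cps1, Dbp, Igf1 and Stab2, and after median subtraction Adipoq, Cps1, Dbp and Igf1. Creld2 and Igf1 gained it with the 8 fl/fl arrays alone, and Cyp8b1 and Fasn with the minimum mean. Without 1 array, Clec4f, Cps1, Cyp8b1, Dbp, Fasn, Ggps1, Herpud1, Hnf4a, Igf1 and Socs3 each passed in at least 1 run. No named gene that passed changed direction. Among named genes that did not pass, the changes were -0.014 for Adipoq, 0.021 for Ggps1, 0.16 for Nr1i3, 0.0088 for Saa1 and 0.11 for Xbp1 after loess, and 0.022 for Ggps1, 0.012 for Mki67, 0.090 for Nr1i3 and 0.037 for Xbp1 after median subtraction. Without 1 array Adipoq ranged from -0.0010 to 0.068, Dnajb9 from -0.15 to 0.30, G6pc from -0.82 to 0.22, Herpud1 from -0.59 to 0.0018, Mki67 from -0.19 to 5.8e-05, Nr1i3 from -0.44 to 0.63 and Xbp1 from -0.25 to 0.080. No paired analysis was possible because the array numbers only follow the order of the samples. Genes near the control medians can hardly show a fall.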

Other observations

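Other classes of small or segmented genes had members that passed. Of 913 snRNA genes 335 fell and 23 rose (median -0.16), and of 298 antibody and T cell receptor V segments 101 rose and 2 fell (median 0.20), at median levels of 1.75 and 1.87, close to the control probe sets. Pseudogenes fell in 641 and rose in 450 of 3956. Over all described genes 22.1% fell and 9.84% rose, so the pseudogene counts show little about that class. Negative control probe sets had medians of 1.81 to 2.12 on the same 8 arrays, so the snRNA and V segment levels were hardly above them, and the part of the array shifts in these counts was not tested.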
